A study of Rattus norvegicus with 8 samples.

Results

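The genes described here encode receptors, bridging molecules and an adaptor of efferocytosis, the uptake of dying cells by macrophages. They are 8 of the 23487 genes in the deposited count table (Mertk, Axl, Tyro3, Gas6, Pros1, Mfge8, Lrp1 and Elmo1). They were chosen by name from the biology of the pathway, with earlier results of these data known, and matched by symbol, each to a single row. RNA-seq was made from macrophages sorted by flow cytometry from the peritoneal lavage of Wistar rats, 8 weeks old and female, 15 days after an intraperitoneal injection of multi-walled carbon nanotubes. One group received the needle-like MWCNT-XNRI-7 (CNT-7), which causes mesothelioma in rats, and the other the tangled MWCNT-CNT-T (CNT-T), which does not. Each group held 4 rats, numbered 3, 5, 10 and 11 after CNT-7 and 1, 2, 12 and 13 after CNT-T, with 1 library per rat. The macrophage gate of the study is high CD11b/c with dim His48 staining. Untreated rats were not analysed here, so each difference is between both particles and not from a resting state.

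In efferocytosis, a macrophage recognizes phosphatidylserine exposed on a dying cell, either directly or through a soluble molecule that bridges the cells. The receptor tyrosine kinases Tyro3, Axl and Mertk, known together as TAM receptors, bind the ligands Gas6 and protein S, which in turn bind phosphatidylserine. MFG-E8 bridges phosphatidylserine to integrins, and LRP1 recognizes calreticulin on the dying cell. ELMO1 works downstream with DOCK proteins to activate Rac and drive engulfment. In resting tissue macrophages Mertk is known as the TAM receptor of steady-state clearance, whereas Axl is known for its induction under inflammatory stimuli.

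The libraries held between 27195157 and 33732981 estimated counts, and a level of 3 counts corresponded to between 0.0887 and 0.109 CPM (counts per 1000000, scaled with the TMM factors of edgeR). All 10 macrophage markers examined were tested, among them Csf1r, Cd68, Adgre1 and Lyz2. Their summed level ran from 15800 to 22878 CPM after CNT-7 and from 24571 to 34847 CPM after CNT-T. Most of each sum was Lyz2, at 12197 to 19618 CPM after CNT-7 and 20529 to 30099 CPM after CNT-T, which was not called. The sum therefore describes mainly this gene. Of the 10, 5 were called lower after CNT-7 (Csf1r, Cd68, Adgre1, Fcgr1a and Cd163) and 3 higher (Cd14, Spi1 and Gata6). The part of these marker differences in the results was not tested. Mesothelial markers summed to at most 0.369 CPM in any rat, with Upk3b and Wt1 at 0 counts in all 8.

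Of the 8 genes, 7 had enough counts to be tested and 4 passed an adjusted p-value threshold of 0.10 in edgeR's quasi-likelihood test, as against 27.9% of all 12124 genes tested. As the genes were chosen with earlier results of these data known, their share is a description only. Mfge8 and Gas6 rose after CNT-7 (13.9% of all genes were called higher), and Axl and Pros1 fell (14.0% were called lower). Mertk, Lrp1 and Elmo1 were not called. The groups did not overlap in the same 4 genes that were called, whereas they did not overlap in 24.9% of all genes tested. The median log2 fold change of the 7 genes was 0.0037, beside 0.0083 over all genes tested. The rat-by-rat plot of levels shows all of these values.

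**Figure D1:**
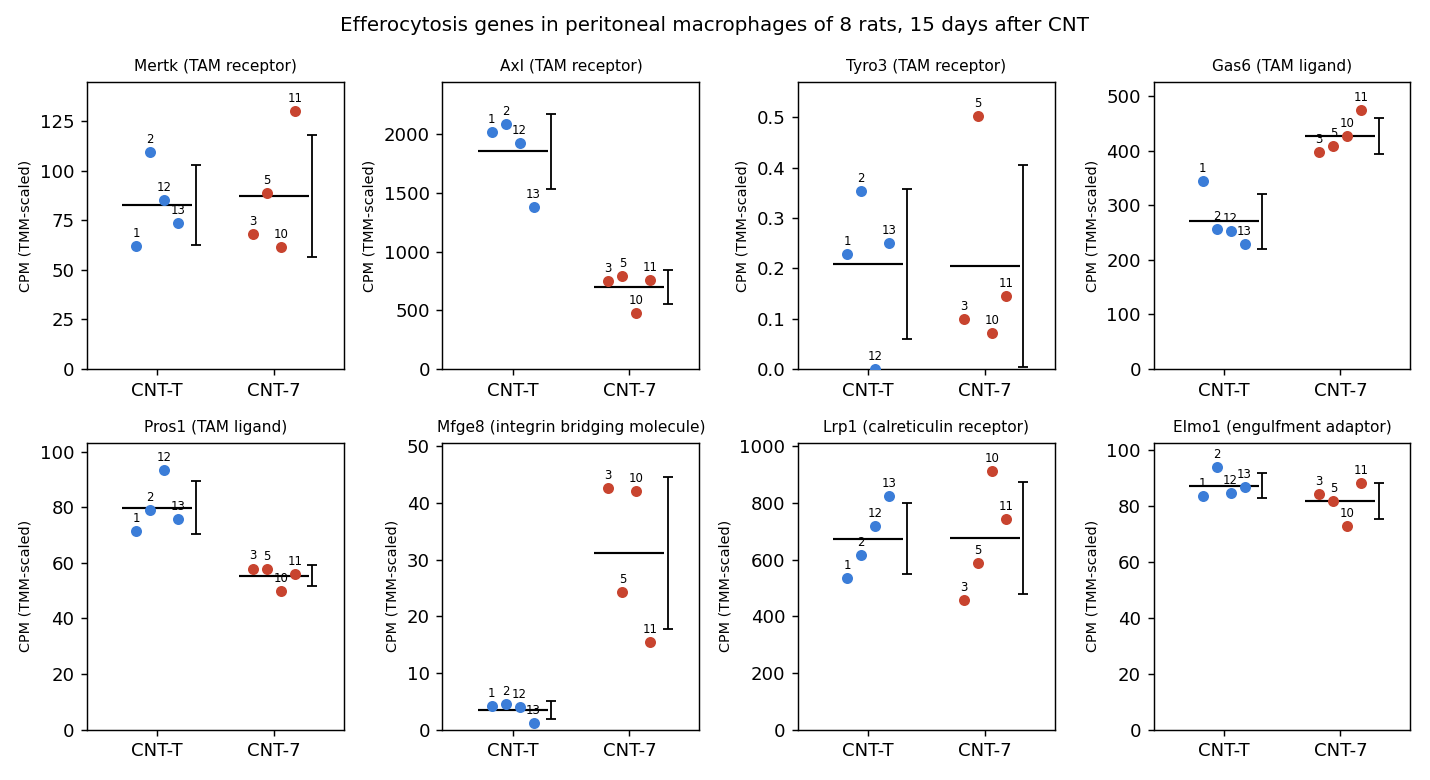
Level in CPM (vertical axis, linear from 0, a separate scale per gene) of the 8 efferocytosis genes in CNT-T rats (blue) and CNT-7 rats (red). Each point is 1 rat with its number, the horizontal line is the mean of 4 rats and the bar is the SD. Axl and Pros1 lie lower, and Gas6 and Mfge8 higher, in every CNT-7 rat than in any CNT-T rat, whereas Mertk, Tyro3, Lrp1 and Elmo1 overlap.

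Among the TAM receptors, Axl fell after CNT-7. Axl (ENSRNOG00000020716) stood at 753, 792, 478 and 759 CPM in CNT-7 rats 3, 5, 10 and 11. In CNT-T rats 1, 2, 12 and 13 it stood at 2020.2, 2091, 1926 and 1382 CPM. The lowest CNT-T rat was thus above the highest CNT-7 rat. The mean was 695 ± 146 CPM (SD, n = 4) with CNT-7 against 1855 ± 322 CPM (SD, n = 4) with CNT-T, which is 2.67-fold higher after CNT-T. Its log2 fold change (positive where higher after CNT-7) was -1.42 (standard error 0.18, edgeR adjusted p = 0.00098), and 1.38% of all genes tested had a log2 fold change as low or lower. These counts come from bulk RNA, in which a smaller share of cells with Axl and less Axl RNA per cell cannot be told apart.

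Mertk (ENSRNOG00000017319), in contrast, overlapped between the groups. It stood at 68.2, 88.6, 61.6 and 130.2 CPM in CNT-7 rats 3, 5, 10 and 11. In CNT-T rats 1, 2, 12 and 13 it stood at 62.2, 109.2, 85.4 and 73.6 CPM. The highest level was in CNT-7 rat 11 and the next in CNT-T rat 2, while the lowest levels of both groups lay within 1 CPM of each other. The log2 fold change was 0.076 (standard error 0.24, edgeR adjusted p = 0.86), with a 95% interval from -0.47 to 0.62 that does not reach the value of Axl.

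Tyro3 (ENSRNOG00000058586), the third TAM receptor, was near the limit of detection. CNT-7 rats 3, 5, 10 and 11 had 3, 15, 2 and 4 counts. CNT-T rats 1, 2, 12 and 13 had 7, 12, 0 and 7 counts. All 8 libraries together held 50 counts of Tyro3. It did not pass the filter on low counts, and a difference between the groups was not detectable at this depth.

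The ratio of Axl to Mertk within each rat sets the pair side by side without reference to the library. It was between 5.83 and 11.04 after CNT-7 and between 18.8 and 32.5 after CNT-T, in counts not corrected for the lengths of the transcripts, so that its value compares rats and not the abundance of both receptors. No CNT-7 rat came near the lowest CNT-T rat. No test of this ratio was made.

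Both TAM ligands were called, in opposite directions. Gas6 (ENSRNOG00000018233), which binds all TAM receptors and is known as the main ligand of Axl, stood at 398, 408, 427 and 474 CPM in CNT-7 rats 3, 5, 10 and 11. In CNT-T rats 1, 2, 12 and 13 it stood at 344, 257, 252 and 229 CPM. CNT-T rat 1 was the highest of its group and was still below every CNT-7 rat. The means were 427 ± 33.5 CPM (SD, n = 4) with CNT-7 against 270.3 ± 50.4 CPM (SD, n = 4) with CNT-T, with a log2 fold change of 0.66 (standard error 0.13, edgeR adjusted p = 0.0061).

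Pros1 (ENSRNOG00000048723) encodes protein S, a ligand of Tyro3 and Mertk that is also an anticoagulant cofactor in plasma. Its level was 58.0, 57.6, 49.9 and 56.0 CPM in CNT-7 rats 3, 5, 10 and 11. In CNT-T rats 1, 2, 12 and 13 it was 71.5, 78.9, 93.3 and 75.8 CPM. The CNT-7 rats lay close together and all below the CNT-T rats. With a log2 fold change of -0.53 (standard error 0.093, edgeR adjusted p = 0.0042), it was 1.44-fold higher after CNT-T, at 79.9 ± 9.46 CPM (SD, n = 4) against 55.4 ± 3.73 CPM (SD, n = 4).

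Within single rats, Gas6 had between 6.86 and 8.55 counts per count of Pros1 after CNT-7 and between 2.70 and 4.81 after CNT-T. Relative to its receptor, Gas6 had between 0.516 and 0.894 counts per count of Axl after CNT-7, and between 0.123 and 0.170 after CNT-T. Neither ratio could overlap between the groups, because Gas6 was higher, and Axl and Pros1 lower, in every CNT-7 rat. These ratios therefore restate the results of the single genes, and neither was tested. The plot of ratios by rat places CNT-7 rat 10, with the lowest Axl, at the highest Gas6 per Axl.

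**Figure D2:**
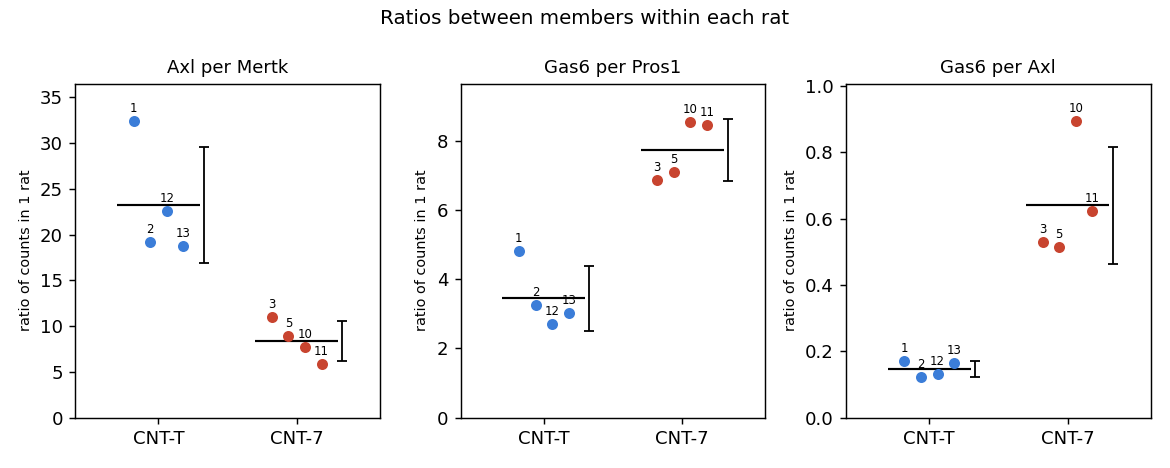
Ratios of the counts of 2 genes in the same rat (vertical axis, linear from 0, no unit) for Axl per Mertk, Gas6 per Pros1 and Gas6 per Axl, with CNT-T rats in blue and CNT-7 rats in red. Points are rats with their numbers, lines are means of 4 rats and bars are SDs. Axl per Mertk is lower, and both Gas6 ratios are higher, in every CNT-7 rat than in any CNT-T rat.

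The largest change was that of Mfge8 (ENSRNOG00000017510), whose product MFG-E8 binds phosphatidylserine through its discoidin domains and alpha v integrins through an RGD motif. It had 1300, 725, 1168 and 429 counts in CNT-7 rats 3, 5, 10 and 11, or 42.7, 24.3, 42.2 and 15.5 CPM. CNT-T rats 1, 2, 12 and 13 had 130, 156, 119 and 32 counts, or 4.24, 4.61, 3.92 and 1.15 CPM. The lowest CNT-7 rat was more than 3 times the highest CNT-T rat, and both groups spread widely within themselves. The log2 fold change of 3.15 (standard error 0.44, edgeR adjusted p = 0.0014) corresponds to an 8.90-fold higher level after CNT-7, and 99.3% of all genes tested had a lower or equal value. MFG-E8 is also made by dendritic cells. The summed level of 5 dendritic cell markers was 9.13, 11.6, 6.14 and 5.61 CPM in CNT-7 rats 3, 5, 10 and 11 and between 4.37 and 8.38 CPM in the CNT-T rats, so that the sums overlapped. Among the 5, Zbtb46 was not called and overlapped, and Flt3 and Xcr1 did not pass the filter on low counts, Xcr1 being higher in every CNT-7 rat. Clec9a was called higher, at 0.615 to 1.98 CPM with CNT-7 against 0.148 to 0.560 CPM with CNT-T. Ccr7 was called higher too, at 0.398 to 3.15 CPM with CNT-7, but it was at most 0.266 CPM with CNT-T and at or below 3 counts in 3 of those 4 rats, so it passed the filter through the CNT-7 group. The part of dendritic cells in the rise of Mfge8 was not tested.

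Axl and Mfge8 are the genes that changed more than 2-fold, in opposite directions, and the sequence around their start sites is shown for that reason. Each window covers 250 bases before and 50 bases from the start site of the RefSeq gene, 5′ to 3′ on the strand of the gene, in assembly GRCr8 (the counts rest on Rnor_6.0). All 8 genes had such a window in the RefSeq table. Capitals mark GC boxes (GGGCGG on either strand). The Axl window is chr1:90423960-90424259 on the minus strand and the Mfge8 window is chr1:142489382-142489681 on the minus strand.
Axl: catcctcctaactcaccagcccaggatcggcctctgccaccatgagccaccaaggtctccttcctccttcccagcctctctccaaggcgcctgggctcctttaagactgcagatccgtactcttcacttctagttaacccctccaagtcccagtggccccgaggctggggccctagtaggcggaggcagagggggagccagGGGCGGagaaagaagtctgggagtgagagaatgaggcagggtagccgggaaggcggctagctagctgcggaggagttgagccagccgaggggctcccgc
Mfge8: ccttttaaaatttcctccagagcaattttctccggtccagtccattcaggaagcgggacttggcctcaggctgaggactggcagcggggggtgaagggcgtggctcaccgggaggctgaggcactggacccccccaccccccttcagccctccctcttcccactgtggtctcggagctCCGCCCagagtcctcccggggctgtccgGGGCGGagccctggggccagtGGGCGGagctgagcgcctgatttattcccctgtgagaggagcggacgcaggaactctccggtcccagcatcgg

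The windows were searched on both strands for 5 motifs. Besides the GC box, they were the CCAAT box under its own letters, the TATA box as TATAAA, the site of AP-1 (a factor of inflammatory and stress responses) as TGANTCA, and the site of PU.1, which specifies macrophages, as GAGGAAGT. Axl held 1 GC box, at position -49 from the start site, and Mfge8 held 3, at positions -72, -44 and -23, and neither held a match to the other motifs. A GC box was in the windows of all 8 genes, those that changed and those that did not, and in 33.1% of 33469 windows of the same length in the table. Elmo1 alone among the 8 held the letters of a PU.1 site (2.42% of all windows), Tyro3 alone those of an AP-1 site (7.33%) and Lrp1 alone a CCAAT box (37.5%). None held the TATA letters (14.2%). The GC content of the 8 windows was between 63.0% and 81.3%, with Axl the lowest and Tyro3 the highest. Such matches describe the letters and do not show binding.

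Lrp1 (ENSRNOG00000025053), a large endocytic receptor of the LDL receptor family, had nearly equal means, 676 ± 197 CPM (SD, n = 4) with CNT-7 against 674 ± 125 CPM (SD, n = 4) with CNT-T. It stood at 459, 587, 914 and 744 CPM in CNT-7 rats 3, 5, 10 and 11 and at 536, 617, 720.2 and 824 CPM in CNT-T rats 1, 2, 12 and 13. The highest and the lowest level of all 8 rats were both after CNT-7. Its log2 fold change was 0.0037 (standard error 0.21, edgeR adjusted p = 0.99), with a 95% interval from -0.46 to 0.47.

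Elmo1 (ENSRNOG00000059705) was the steadiest of the genes, 72.9 to 88.4 CPM with CNT-7 against 83.6 to 93.9 CPM with CNT-T. CNT-7 rat 10 was lowest and CNT-T rat 2 highest, and the other rats overlapped. The log2 fold change was -0.094 (standard error 0.076, edgeR adjusted p = 0.44), and its 95% interval from -0.26 to 0.077 was the narrowest of the 7. The spread between rats of a group, given as the biological coefficient of variation that edgeR estimated, was 9.61% for Elmo1 and 10.9% for Pros1, beside a median of 13.4% over all genes tested. Gas6 had 13.9%, Axl 18.6%, Lrp1 21.3%, Mertk 24.5% and Mfge8 41.0%.

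Partner genes of the 8 were then examined, in the plot of log2 fold changes together with them. The integrin chains that MFG-E8 binds gave different results. Itgb3, the beta 3 chain, stood at 35.3, 49.5, 93.1 and 37.7 CPM in CNT-7 rats 3, 5, 10 and 11. It was between 5.76 and 7.75 CPM in the CNT-T rats, far below every CNT-7 rat. Its log2 fold change was 2.94 (standard error 0.31, edgeR adjusted p = 0.00039). Itgav, the alpha v chain, had 115 ± 4.83 CPM with CNT-7 against 104 ± 5.67 CPM with CNT-T (log2 fold change 0.15, edgeR adjusted p = 0.14). Itgb5 was not analysed here.

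Edil3 encodes a secreted protein of the same build as MFG-E8, with discoidin domains and an RGD motif. It had 13.8 ± 3.38 CPM (SD, n = 4) with CNT-7 against 1.85 ± 1.46 CPM (SD, n = 4) with CNT-T (log2 fold change 2.90, standard error 0.43, edgeR adjusted p = 0.0020). CNT-T rat 1 had 4.04 CPM and the other CNT-T rats 1.06 to 1.22 CPM, and without it the log2 fold change was 3.62.

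Of the genes that modify TAM receptors and ligands, Adam10, a protease that sheds ectodomains, rose slightly, with 434 ± 24.3 CPM with CNT-7 against 335 ± 23.6 CPM with CNT-T (log2 fold change 0.37, standard error 0.077, edgeR adjusted p = 0.0084). Adam17, which sheds Mertk and Axl, had a log2 fold change of 0.13 (edgeR adjusted p = 0.40). Ggcx and Vkorc1, which serve the vitamin K-dependent carboxylation of Gas6 and protein S, had log2 fold changes of -0.11 and -0.23 (edgeR adjusted p = 0.57 and 0.19). Without CNT-T rat 13, Vkorc1 passed the threshold (log2 fold change -0.32, edgeR adjusted p = 0.042).

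Dock1, the partner of ELMO1 in the activation of Rac, fell slightly. It had 95.1 ± 8.61 CPM with CNT-7 against 120.1 ± 4.90 CPM with CNT-T, with no overlap (log2 fold change -0.34, standard error 0.079, edgeR adjusted p = 0.015). Rac1 and Rhog had log2 fold changes of 0.020 and -0.0015 and Calr, the ligand of LRP1 on dying cells, one of -0.067, none of them called. Gulp1, an adaptor that binds the tail of LRP1, was at 0.519 ± 0.247 CPM with CNT-7 against 1.10 ± 0.567 CPM with CNT-T (log2 fold change -1.07, edgeR adjusted p = 0.12), and it passed the threshold without CNT-7 rat 11 (-1.35, edgeR adjusted p = 0.080). Dock2 was not analysed here.

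**Figure D3:**
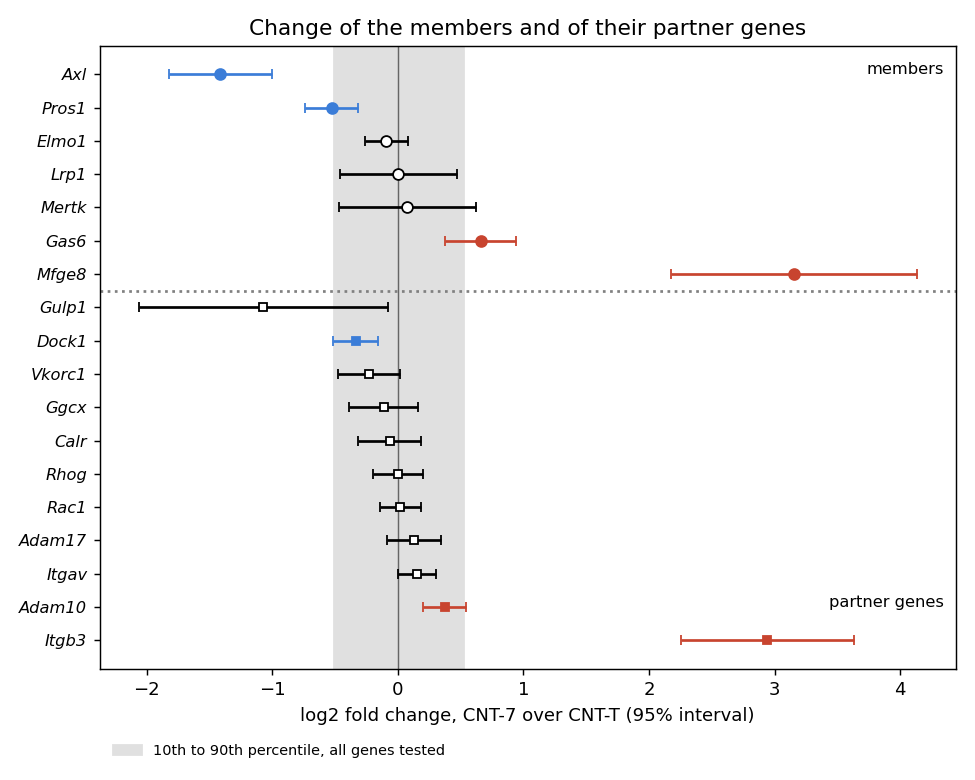
Log2 fold change, CNT-7 relative to CNT-T (horizontal axis, points) with 95% intervals (bars) for the 7 tested efferocytosis genes (circles) and 11 partner genes (squares), from edgeR. Red marks genes called higher, blue called lower and open symbols not called at an adjusted p-value of 0.10, and the grey band holds the 10th to 90th percentile of all genes tested, from -0.51 to 0.53. Mfge8 and Itgb3 lie far to the right and Axl far to the left, and the intervals of Mertk, Lrp1 and Elmo1 include 0.

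Other genes of efferocytosis were described in 7 lists with 102 genes, of which 83 were tested, 28 called higher and 9 called lower after CNT-7. This is 44.6% called, beside 27.9% of all genes tested, and the lists were written with earlier results of these data known. By list, the share called was 46.2% for receptors, 62.5% for bridging molecules and 33.3% for engulfment. It was 50% for carboxylation, shedding and feedback, 12.5% for phagosome maturation, 61.5% for lipid sensing and 75% for find-me and do-not-eat-me genes. The median log2 fold change over the 83 genes was 0.13.

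Of 13 tested receptors for phosphatidylserine or dying cells, 5 rose and 1 fell. Besides Itgb3, the largest rise was that of Olr1, the scavenger receptor LOX-1, from 133 ± 27.8 to 780.0 ± 312 CPM (log2 fold change 2.56, edgeR adjusted p = 0.00047). Scarf1, a scavenger receptor that binds C1q, fell by 1.05 on the log2 scale (edgeR adjusted p = 0.021). The phosphatidylserine receptor gene Cd300lf was higher after CNT-7 (log2 fold change 1.04, edgeR adjusted p = 0.00092). Cd300a and Cd300lb, in the same list, were not called, with log2 fold changes of 0.057 and 0.013 (edgeR adjusted p = 0.73 and 0.96). The phosphatidylserine receptor gene Stab1 was not called either, at 1.16 ± 0.249 CPM with CNT-7 against 2.22 ± 1.66 CPM with CNT-T.

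Of 8 tested soluble bridging molecules other than Gas6, Pros1 and Mfge8, 3 rose and 2 fell. Higher were Edil3, Anxa5 (log2 fold change 0.52) and Anxa1 (0.33), of which the annexins bind phosphatidylserine. Lower were the complement chains C1qc, from 1191 ± 332 to 555 ± 232 CPM (log2 fold change -1.10, edgeR adjusted p = 0.027), and C1qb (-0.86, edgeR adjusted p = 0.022). C1qa, the third chain of C1q, had a log2 fold change of -0.47 and was not called (edgeR adjusted p = 0.18). C1q attaches to dying cells and is among the molecules that reach LRP1 through calreticulin.

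In the engulfment and cytoskeletal machinery, 1 of 15 tested genes rose and 4 fell, or 33.3% called, near the 27.9% of all genes tested. The rise was that of Abca7 (log2 fold change 0.42), a transporter known to promote phagocytosis. Dock5 (-0.71), Bcar1 (-0.65), Ptk2 (-0.44) and Dock1 fell, Ptk2 being the focal adhesion kinase and Bcar1 its adaptor p130Cas. Bcar1 was called with an edgeR adjusted p = 0.062 and overlap between the groups, and it was not called without any single one of 5 rats (CNT-7 rats 3, 10 and 11 and CNT-T rats 1 and 2), with edgeR adjusted p between 0.11 and 0.15.

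Of 10 genes of carboxylation, shedding and feedback around the TAM receptors, 5 rose. TAM signalling is known to induce the suppressors of cytokine signalling. Socs3 stood at 29.6 ± 10.6 CPM with CNT-7 against 3.70 ± 1.58 CPM with CNT-T (log2 fold change 2.999, edgeR adjusted p = 0.00073), and Socs1 at 3.20 ± 0.928 and 0.581 ± 0.264 CPM (2.45, edgeR adjusted p = 0.0018). Furin (0.96), Plscr1 (1.61) and Adam10 were the other rises, Plscr1 being a phospholipid scramblase that interferon induces.

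Of 16 tested genes of phagosome maturation, 2 rose, or 12.5% called, beside 27.9% of all genes tested. It was the lowest share of the 7 lists. Pik3c3 and Becn1, subunits of the class III phosphatidylinositol 3-kinase, had log2 fold changes of 0.20 and 0.18 (edgeR adjusted p = 0.057 and 0.087). Becn1 lost its call when any rat but CNT-T rat 2 was left out, and Pik3c3 when any of 6 rats was left out, with edgeR adjusted p of at most 0.17. The LC3-associated phagocytosis gene Rubcn (-0.18) and the oxidase subunit gene Cybb (0.022) were not called.

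In the list of lipid sensing and efflux after engulfment, 8 of 13 genes were called, with 7 higher and 1 lower. The list also held genes of other metabolism and transport, namely Slc2a1, Slc16a1, Ucp2 and Odc1. Pparg, 1 of the 7, was at most 0.143 CPM with CNT-T against 0.688 to 1.31 CPM with CNT-7, so it passed the filter through the CNT-7 group. Slc2a1, a glucose transporter, had the largest rise among those with at least 1 CPM on average (log2 fold change 1.95, edgeR adjusted p = 0.0019), followed by the cholesterol exporter Abcg1 (1.01, edgeR adjusted p = 0.00063). Odc1, the first enzyme of polyamine synthesis, fell by 0.53 on the log2 scale (edgeR adjusted p = 0.022). Abca1, the other cholesterol exporter, was at 211 ± 40.5 CPM with CNT-7 against 175 ± 28.9 CPM with CNT-T and was not called.

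Among the find-me and do-not-eat-me genes, 5 of 8 rose and 1 fell. Of the 5, Lilrb3 was low and overlapped between the groups, at 0.0361 to 1.88 CPM with CNT-7 against 0.0652 to 0.355 CPM with CNT-T. Its log2 fold change was 2.24 (edgeR adjusted p = 0.096). The fractalkine receptor gene Cx3cr1 (log2 fold change 4.12) and the lysophospholipid receptor gene Gpr132 (0.95) were higher, and the nucleotide receptor gene P2ry2 was lower (-0.44, edgeR adjusted p = 0.0074). Sirpa, the receptor for the do-not-eat-me signal CD47, had 262 ± 3.68 CPM with CNT-7 against 192 ± 9.65 CPM with CNT-T (log2 fold change 0.45, edgeR adjusted p = 0.0015), and Cd47 itself was higher too (0.23, edgeR adjusted p = 0.030).

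**Figure D4:**
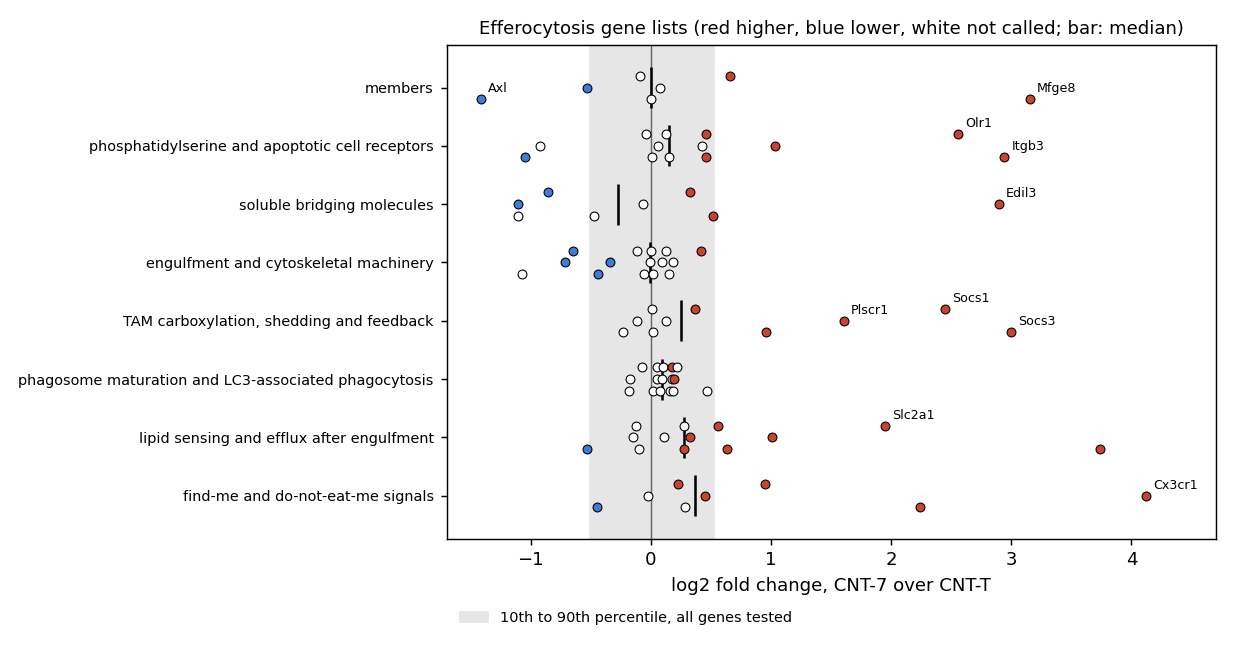
Log2 fold change, CNT-7 relative to CNT-T (horizontal axis) for the 7 tested efferocytosis genes (top, members) and for the 83 tested genes of 7 other lists, 1 point per gene, with the offset within a row only for legibility. Red points were called higher, blue lower and white not called, the black bar is the median of the list, and the grey band is the 10th to 90th percentile of all genes tested. The tested phagosome genes all lie inside the band, whereas the receptor, bridging, feedback, lipid and find-me lists each hold genes far to its right. The receptor, bridging, engulfment and lipid lists also hold genes to its left, and the median of the bridging list is -0.27.

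The genes nearest in pattern to each of the 7 were sought among 10162 others, by the root mean square difference in log2 CPM over the 8 rats after each gene's own mean was removed. The nearest to Axl were Fzd4 (0.12) and Ccdc149 (0.12), beside a range of 2.13 for Axl itself, and the nearest to Mfge8 were Ccl17 (0.40) and Cish (0.40), beside a range of 5.14. Gas6 was nearest to Prex1 (0.099) and Gas2l1 (0.11), and Pros1 to Mutyh (0.049) and Bcl2 (0.073). Mertk was nearest to Gbp2 (0.18) and Apoe (0.18), Lrp1 to Cited2 (0.13) and Prdx1 (0.14), and Elmo1 to Fxr2 (0.037) and Cnot9 (0.042). None of the 7 was among the 2 nearest of another. With 8 rats in 2 groups, such distances describe these libraries only.

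Markers of other cells were examined, some of which can make the same molecules. Gas6 is also made by fibroblasts and mesothelial cells, and 6 fibroblast markers summed to 0.614 to 1.47 CPM with CNT-7 against 0.163 to 0.758 CPM with CNT-T. None of the 6 passed the filter on low counts. Col1a1 and Dcn were at 0 in every CNT-T rat and detected in every CNT-7 rat, Dcn at only 0.0328 to 0.144 CPM. Col1a2, Col3a1, Pdgfra and Lum overlapped between the groups. Pdgfra had means of 0.220 CPM with CNT-7 and 0.262 CPM with CNT-T. Protein S is also carried by platelets. Of 5 platelet markers, whose sum was 184 to 413 CPM with CNT-7 against 468 to 721 CPM with CNT-T, Gp9 and Gp1bb were at 0 counts in all 8 rats. Ppbp was at most 0.0328 CPM in any rat and did not pass the filter on low counts. Itga2b was detected in every rat, at 0.578 to 1.04 CPM with CNT-7 against 0.424 to 1.29 CPM with CNT-T, and was not called. The sum was almost wholly Pf4, which differed between the groups, with 290.1 ± 96.8 CPM after CNT-7 against 571 ± 108 CPM after CNT-T (log2 fold change -0.98, edgeR adjusted p = 0.015). The sum therefore describes Pf4 and not the platelet markers as a set. B cell and mast cell markers each summed to at most 2.78 CPM and T cell markers to at most 10.0 CPM, with the highest B cell and T cell sums in CNT-7 rat 5. Cd3e, a T cell marker below the filter, was at 0.290 to 2.11 CPM with CNT-7 against 0.0358 to 0.231 CPM with CNT-T. Cd3d, Cd3g and Cd247, also below the filter, overlapped between the groups. Lck, the T cell marker that was tested, overlapped too and was not called (log2 fold change -0.25, edgeR adjusted p = 0.555). Eosinophil markers reached 9.33 CPM in CNT-7 rat 3 and at most 0.670 CPM in the other rats. Neutrophil markers summed to between 25.95 and 68.4 CPM over all rats, most of it Csf3r, which was not called. The neutrophil marker S100a8 was called lower after CNT-7, without overlap (log2 fold change -1.46, edgeR adjusted p = 0.016). S100a9, Cxcr2 and Elane were not called and overlapped, with log2 fold changes of 1.23, 1.26 and -0.68. Csf3r overlapped as well (0.39), and Mpo was at 0 counts in all 8 rats. The neutrophil markers thus did not share a direction. The part of these cells in the results was not tested.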

How the data were processed

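Macrophages sorted from the peritoneum of 8 rats, 4 per particle, were sequenced from stranded poly(A) libraries. In the ARMOR workflow the authors checked reads with FastQC, quantified them with Salmon (version not given in the sources used here) on the Ensembl cDNA of Rnor_6.0 and imported them with tximeta. They deposited estimated counts per gene, not normalized and already whole numbers, so no rounding was needed. Salmon divides reads between similar transcripts, and isoforms cannot be seen in gene counts. No transcript lengths were used, so levels are meant for comparison between rats, and sums over markers and ratios of genes are not corrected for length.

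Groups came from the labels of the injected particles and rat numbers from the titles. The labels do not say what these numbers stand for. All 8 columns were used, and 0 were left out. In R 4.3.3, edgeR 4.0.16 (TMM, filterByExpr at its defaults, 10 counts and 15 in total, quasi-likelihood test, Benjamini-Hochberg adjustment over 12124 genes) compared the groups. The threshold of the study, an adjusted p-value below 0.10, decided the calls. Standard errors are the log2 fold change over the square root of F. The fit was tested on simulated data. The libraries of any pair of rats differed in at least 14613 genes, so no library was a copy. Levels of 3 counts cover counting error only.

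The 8 genes and all lists were chosen with earlier results of these data known. Named besides the 8 were their partner genes, the 2 largest called rises and falls per list with a mean of at least 1 CPM, and the 2 genes nearest in pattern (prior count 2). Cd300lf, Cd300a, Cd300lb, Stab1, Anxa1, C1qa, Ptk2, Furin, Plscr1, Rubcn, Cybb, Pparg, Slc16a1, Ucp2, Abca1, Sirpa, Cd47 and Lilrb3 were named after their values were seen. Alternatives were DESeq2 1.42.0, upper-quartile and RLE normalization, no filter, at least 10 counts in every rat, a threshold of 0.05, a change of 2-fold or more, rat numbers up to 5 or from 10 as a term, and each rat left out in turn. Promoter windows are RefSeq sequences of GRCr8, and its gene coordinates were not used with the counts.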

Additional observations from a re-analysis of the deposited data

Results flagged for a closer look

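In 74 groups of 4 rats, for the tested efferocytosis genes and the other named genes, the gap of an extreme rat to its neighbour was divided by the whole range and compared with the 95% critical value of Dixon. Chance alone marks about 5% of such groups, and 7 stood out. Axl in CNT-7 rat 10 (ratio 0.877) was at 478 CPM and its 3 companions at 753 to 792 CPM, and without this rat its log2 fold change was -1.27 (edgeR adjusted p = 0.00081). CNT-T rat 1 stood apart in Edil3 (0.949; 4.04 CPM against 1.06 to 1.22), in Olr1 (0.895; 91.1 CPM against 144 to 150.3), in Dock1 (0.890; 113 CPM against 122 to 123) and in Anxa5 (0.841; 325 CPM against 431 to 451). CNT-T rat 2 stood apart in Calr (0.897), at 1690.3 CPM against 1284 to 1326 CPM, and in Cx3cr1 (0.856), at 6.77 CPM against 3.29 to 3.80 CPM. The causes were not tested.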

How the results depend on the processing

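The 7 tested genes kept their direction where called and their side of the threshold in all 98 combinations of gene and alternative, and Axl, Gas6, Pros1 and Mfge8 were the 4 genes called in each fit at an adjusted p-value of 0.10. Over these alternatives the log2 fold change lay between -1.53 and -1.27 for Axl, 0.58 and 0.79 for Gas6, -0.58 and -0.45 for Pros1, and 2.87 and 3.37 for Mfge8, with adjusted p-values of at most 0.024 (edgeR or DESeq2). The sign of Mertk (-0.18 to 0.24) and of Lrp1 (-0.17 to 0.15), which were not called, changed with the rat left out. Requiring at least a 2-fold change left 1006 of 3383 genes, 2 of the 8 genes (Axl and Mfge8) and 14 of the 37 other efferocytosis genes, by construction of the threshold. With each rat left out in turn, 2578 to 3515 genes, 4 of the 8 genes and 32 to 37 other efferocytosis genes were called. Without a filter Tyro3 had a log2 fold change of -0.028 (edgeR adjusted p = 0.99). For 30 other named genes, 396 of 418 values stayed on the same side of the threshold and none changed direction when called, 20 lost their call (Becn1, Bcar1 and Pik3c3) and 2 gained one (Gulp1 and Vkorc1). A term for low or high rat numbers changed the call of Becn1 among these 30 genes and the 7 tested ones, and genes named after their values were seen were not refitted one by one. No paired analysis was made, because the labels give no pairing of rats between the groups. Depth limits Tyro3 alone among the 8 genes.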
